A study of Mus musculus with 7 samples.

Results

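Semaphorins are secreted or membrane-bound guidance proteins, and plexins and neuropilins are the receptors through which they act. Genes of these families were read from a table of optic nerve RNA in mice that lack fatty acid synthase (FASN) in the oligodendrocyte (OL) lineage. Members were taken by gene symbol, as every symbol that starts with Sema3 to Sema7 or with Plxna, Plxnb, Plxnc or Plxnd, together with Nrp1 and Nrp2. The families themselves were chosen with earlier results of these data known. The rule found 31 of the 22880 genes in the table, namely 20 semaphorins, 9 plexins and 2 neuropilins. All 31 passed the filter on low values, which asked for 0.5 FPKM or more in 3 or more samples.

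Each sample held both optic nerves of 1 mouse at postnatal day 14 (P14). The 4 control mice were FASN lox/lox, that is, homozygous for the floxed Fasn allele, and had no Cre. The 3 mutant mice carried the same floxed alleles and a Cre recombinase driven by Olig2 regulatory elements (olig2cre FASN lox/lox). Both groups were on a C57Bl/6 background, the floxed line after at least 3 generations of backcrossing. Olig2 marks the whole OL lineage but is not restricted to it during development. Because no control carried Cre, Cre itself and the loss of Fasn cannot be told apart.

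A semaphorin on one cell binds a plexin on its neighbour, directly or, for most class 3 members, through a neuropilin. The plexin's cytoplasmic part switches off Ras and Rap GTPases and recruits other signalling proteins, which reshapes actin and microtubules in a growth cone or a glial process. In the optic nerve these proteins are known for steering axons of retinal ganglion cells and vessels and for guiding OL progenitors (OPCs). Several are made by OLs themselves, among them Sema4d, Sema6a and Sema5a, and plexin-B3 is known as a plexin of the OL lineage.

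Values are FPKM, fragments per kilobase of transcript scaled to sequencing depth. Between 27452647 and 43462532 reads per sample lay behind them, and no member had fewer than 132 reads in any mouse. Fasn itself was 210, 169, 211 and 228 FPKM in control and 69.3, 50.5 and 49.0 FPKM in mutant mice, so the groups were as labelled. Differences between genotypes were tested on log2(FPKM + 0.5), on which changes of weak genes come out too small, with limma-trend and Benjamini-Hochberg adjustment over the 13866 genes above the filter. Log2 differences are mutant minus control on that scale, with the standard error (SE) of the fit. Calls at an adjusted p of 0.05 numbered 363 over all genes (2.62%), of which 188 (1.36%) were lower and 175 (1.26%) higher in mutant nerves. That split depended on scaling: 48.2% of the calls were higher with FPKM, against 27.7% with normalized counts, 33.4% after quantile normalization, 36.6% with median-ratio rescaling and 39.0% with equal sums of FPKM. It was 34.7% with no filter on low values and 76.8% with the mouse number as a replicate block. An optic nerve sample mixes cell types, and in bulk RNA fewer cells of a type and less RNA per cell cannot be told apart. The summed FPKM of 9 markers of myelinating OLs was 57989 to 65736 in control and 42063 to 54381 in mutant nerves, and that of 6 markers of newly formed OLs was 970 to 1110 and 655 to 837. For 5 OPC markers the sums were 135 to 148 and 110 to 128. The 9 astrocyte markers summed to 3019 to 3459 and 3983 to 4757, with 4 of 9 genes called higher, and the 8 endothelial markers to 139 to 158 and 166 to 189. The 8 meningeal fibroblast markers summed to 1736 to 2311 in control and to 4330, 2216 and 2617 in mutant mice 1 to 3, or 150% of control. All 8 had positive log2 differences (median 0.62), 6 at an unadjusted p under 0.05, none past the adjusted threshold with limma-trend and 6 with the replicate block. Muscle markers summed to 65.6 in mutant mouse 2 and to at most 5.01 elsewhere. Microglial, mural and Schwann cell sums overlapped between genotypes, at 113%, 143% and 123% of control. All 8 microglial and all 8 mural markers had positive log2 differences (medians 0.14 and 0.19). None of them passed the adjusted threshold with limma-trend, and 1 and 2 did with the replicate block. Of 3 Schwann cell markers tested, 2 were positive and 1 negative. The 6 neuron and retina markers that could be tested summed to 44.9 to 58.3 in control and 59 to 74.2 in mutant nerves (128% of control), and all 6 had positive log2 differences (median 0.29), 1 at an unadjusted p under 0.05 and none past the adjusted threshold of limma-trend. The part of any of these cell types in the values of single genes was not tested.

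Of the 31 genes, 3 fell in mutant nerves past the adjusted threshold and none rose in the fit with genotype alone. The 3 were Sema4f, Sema6a and Plxnb3. They are 9.68% of the members, where 1.36% of all genes tested were called lower. As the families were chosen with earlier results known, this comparison is a description only. At an unadjusted p under 0.05 there were 13 members (41.9%), 5 higher and 8 lower, against 24.4% of all genes. The groups did not overlap in 6 members (19.4%, against 21.1% of all genes), so the members as a set were near the background by that measure. Of these, 4 were lower (12.9%, against 8.26%) and 2 higher (6.45%, against 12.9%). The median log2 difference was 0.09 over the members and 0.0478 over all genes. With the quasi-likelihood test of edgeR on recovered reads the same count of 3 was obtained, whereas DESeq2 called 11 members, where it called 12.1% of all genes. Beyond Sema4f, Sema6a and Plxnb3, DESeq2 called Nrp2, Plxnc1 and Sema3c higher. It called Plxna3, Sema3d, Sema4c, Sema5a and Sema5b lower. With the mouse number as a replicate block, 4 members were higher and 3 lower, where 6.42% of all genes were called higher and 1.94% lower. That fit dropped Plxnb3 and called Plxnb1, Plxnb2, Sema3a and Sema3c higher and Plxna3 lower. Of these, Plxnb1, Plxnb2 and Sema3a were not called by DESeq2 (adjusted p of 0.123, 0.161 and 0.111). For 1 gene taken alone, exact permutation of 4 against 3 mice has 0.0571 as its smallest two-sided p.

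**Figure D1:**
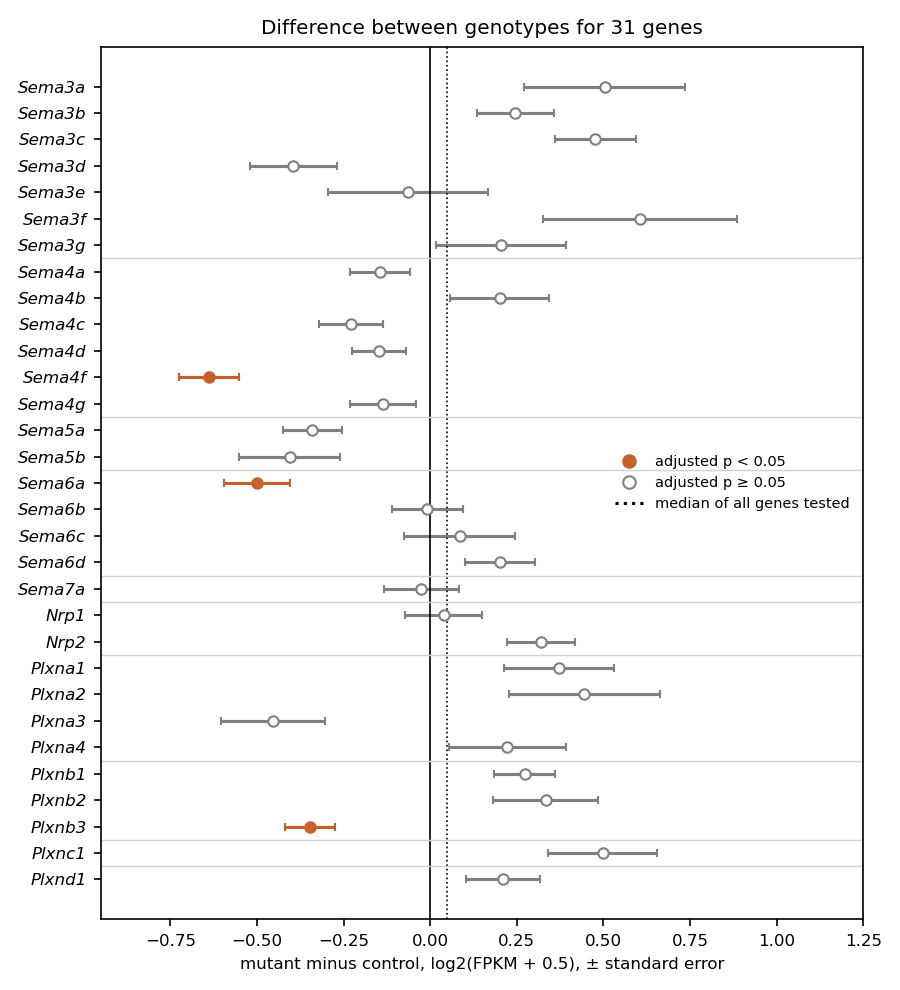
Difference between mutant and control nerves for each of the 31 genes, in log2(FPKM + 0.5) with its standard error (4 control and 3 mutant mice). Filled points are the 3 genes past the adjusted threshold, all to the left of 0, and the dotted line is the median of all genes tested, 0.0478.

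Sema4f (ENSMUSG00000000627, chromosome 6 from 82911885 to 82939769, minus strand, GRCm38) encodes a transmembrane class 4 semaphorin. Its FPKM was 11.4, 10.7, 12.5 and 13.2 in control mice 1 to 4. In mutant mice 1 to 3 it was 7.41, 7.51 and 7.51, and every mutant mouse lay well below the lowest control. The means were 11.9 ± 1.11 (SD, n = 4) and 7.47 ± 0.0554 (SD, n = 3), so mutant nerves held 62.6% of the control level. This is a log2 difference of -0.64 (SE 0.0862, limma-trend adjusted p = 0.0197). It was the member with the smallest p, and it passed in 5 of the 7 fits that left out 1 mouse. Without control mouse 3 its adjusted p was 0.0823 and without mutant mouse 3 it was 0.0736 (limma-trend). All 13 other fits called it, with adjusted p from 5.25e-10 to 0.0464.

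Plxnb3 (ENSMUSG00000031385, chromosome X from 73757090 to 73772514, plus strand), which encodes plexin-B3, had 83.3, 74.5, 87.2 and 85.8 FPKM in control mice. The mutant mice had 60.8, 66.5 and 67.3 FPKM, again with no overlap, although control mouse 2 lay closer to the mutants than the other controls did. The mean fell from 82.7 ± 5.68 (SD, n = 4) to 64.9 ± 3.53 (SD, n = 3), or to 78.4% of control, a log2 difference of -0.35 (SE 0.0718, limma-trend adjusted p = 0.0451). With the mouse number as a replicate block it was just above the threshold, at -0.33 (limma-trend adjusted p = 0.0536). It passed in 1 of the 7 fits that left out 1 mouse, that without mutant mouse 2, and its adjusted p ran from 0.0453 to 0.143 over them (limma-trend). Calls over all genes also rose without mutant mouse 2, to 907 from 363, which bears on every gene said below to pass without that mouse. No gene of the annotation used here overlaps Sema4f or Plxnb3 on either strand.

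The stretches before the starts of Sema4f and Plxnb3 are printed with that of Plxnb1, the paralog whose level was not lower, so that the sequence at the start of each gene can be set beside its values. Of the 31 genes, 26 are in the RefSeq promoter table (GRCm38.p6). Sema4f, Plxnb3 and Plxnb1 were picked by their values, and Sema6a, which was also lower, is not among the genes printed. Each sequence is 250 bases that end at the base before the RefSeq start, which for Plxnb3 and Plxnb1 lies inside the GENCODE gene, and reads 5′ to 3′ on the gene's strand. Sema4f lies at chr6:82939770-82940019 (minus), Plxnb3 at chrX:73756853-73757102 (plus) and Plxnb1 at chr9:109095186-109095435 (plus). Capitals mark matches on either strand to ACAAAG or ACAATG (words of the type bound by Sox factors such as Sox10), to the E-box CAGCTG (bound by basic helix-loop-helix factors) or to the GC-box GGGCGG.
Sema4f: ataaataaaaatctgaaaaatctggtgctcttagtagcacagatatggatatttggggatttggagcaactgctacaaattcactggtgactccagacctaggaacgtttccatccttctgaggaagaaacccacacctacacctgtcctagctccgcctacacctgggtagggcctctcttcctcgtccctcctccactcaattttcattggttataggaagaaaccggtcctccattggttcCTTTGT
Plxnb3: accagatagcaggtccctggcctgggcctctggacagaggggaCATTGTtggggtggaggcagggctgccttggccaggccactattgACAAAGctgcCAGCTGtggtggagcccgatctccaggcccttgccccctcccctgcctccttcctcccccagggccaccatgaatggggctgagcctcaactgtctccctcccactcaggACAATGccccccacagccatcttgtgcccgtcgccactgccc
Plxnb1: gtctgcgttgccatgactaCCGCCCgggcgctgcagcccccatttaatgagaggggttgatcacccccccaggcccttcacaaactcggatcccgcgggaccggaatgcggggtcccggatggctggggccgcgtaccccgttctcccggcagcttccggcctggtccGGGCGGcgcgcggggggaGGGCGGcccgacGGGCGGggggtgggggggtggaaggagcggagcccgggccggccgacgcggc

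The Plxnb3 window held 3 matches to the Sox words and 1 to the E-box, the Sema4f window held 1 Sox word, and the Plxnb1 window held 4 GC-boxes and no match to the others. No matches overlapped. Among 32851 promoter windows of the same length, 25.2% held a Sox word, 13% the E-box and 32.7% the GC-box. The CG dinucleotide occurred 4 times before Sema4f and 3 times before Plxnb3, below the median of 6, and 30 times before Plxnb1, more than in 94.1% of the windows. These matches are descriptions of letters and were tied to no measurement of binding. Counts of matches were not made for Sema6a or the other members. Whether the lower genes differ from the other members in such matches was therefore not tested.

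Sema6a (ENSMUSG00000019647, chromosome 18 from 47235598 to 47368870, minus strand) encodes a transmembrane class 6 semaphorin that binds plexin-A2 and plexin-A4. It was 181, 175, 204 and 169 FPKM in control mice and 134, 142 and 112 FPKM in mutant mice, and the lowest control lay above the highest mutant. Its mean fell from 182 ± 15.2 (SD, n = 4) to 129 ± 15.3 (SD, n = 3), which is 70.8% of control. That was a log2 difference of -0.50 (SE 0.0954, limma-trend adjusted p = 0.0374), and the replicate block left the call as it was. Among the fits that left out 1 mouse it passed only without mutant mouse 2, and its adjusted p ran from 0.0299 to 0.115 (limma-trend).

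For scale, the summed markers of myelinating OLs stood at 76.1% of control in mutant nerves, those of newly formed OLs at 75.0% and those of OPCs at 83.7%. Sema4f at 62.6%, Sema6a at 70.8% and Plxnb3 at 78.4% moved in the same direction as these lists, and the part of cell composition in their fall was not tested.

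**Figure D2:**
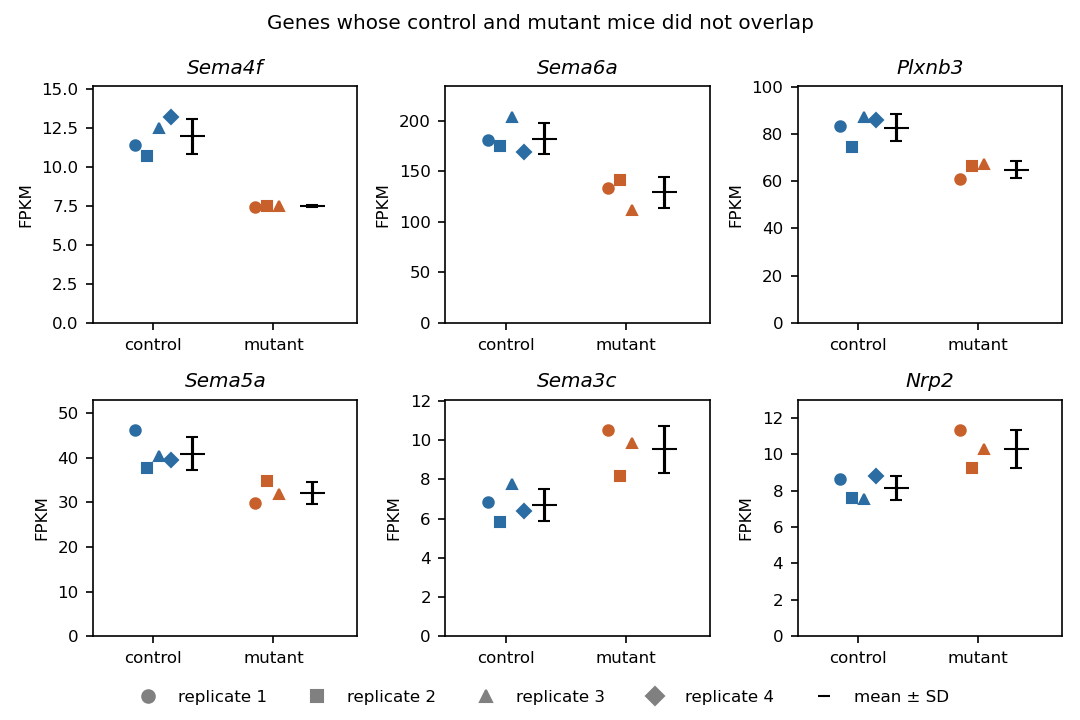
FPKM of each mouse for the 6 genes whose control and mutant mice did not overlap, with markers for the replicate number and a bar for mean ± SD (4 control and 3 mutant mice). Sema4f, Sema6a and Plxnb3 passed the adjusted threshold, while Sema5a, Sema3c and Nrp2 had adjusted p of 0.067, 0.067 and 0.102.

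Among the secreted class 3 semaphorins, none of 7 passed the adjusted threshold. Sema3c, which acts through neuropilins and plexin-D1, was 6.85, 5.83, 7.76 and 6.38 FPKM in control and 10.5, 8.20 and 9.88 FPKM in mutant mice. All mutant values were above all control values, with a log2 difference of 0.48 (SE 0.118, limma-trend adjusted p = 0.067). With the replicate block it was called higher (0.46, limma-trend adjusted p = 0.0369), and it passed without mutant mouse 2 as well (adjusted p = 0.0401).

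Sema3a, the founding repellent of the family and a known brake on OPC migration, was 6.41, 4.27, 5.40 and 7.01 FPKM in control mice. The mutant mice had 10.6, 5.37 and 9.82 FPKM, of which mutant mouse 2 lay within the control range. Its log2 difference was 0.50 (SE 0.233, limma-trend adjusted p = 0.223). With the replicate block it was called higher (0.60, limma-trend adjusted p = 0.0351), and it also passed without mutant mouse 2 (0.79, adjusted p = 0.0435). Without mutant mouse 1 the log2 difference was 0.33 (adjusted p = 0.498).

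Sema3f, which attracts OPCs through neuropilin-2, had the highest fitted value of the family, 0.61 (SE 0.279, limma-trend adjusted p = 0.221), and this rested on 1 library. Its FPKM was 2.76 to 3.59 in control mice and 9.28, 3.28 and 4.20 in mutant mice 1 to 3. Without mutant mouse 1 the log2 difference was 0.20. That mouse also had the high sum of meningeal fibroblast markers given above, whose part in this value was not tested.

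Sema3d was the strongest class 3 gene, with 50, 33.2, 45.8 and 41.5 FPKM in control and 32.8, 33.2 and 29.9 FPKM in mutant mice. Control mouse 2 stood at the level of the mutants, and the other controls were higher. The log2 difference of -0.40 did not pass (SE 0.126, limma-trend adjusted p = 0.11). Sema3b was 26.1 ± 3.35 FPKM (SD, n = 4) in control and 31 ± 3.61 FPKM (SD, n = 3) in mutant nerves (limma-trend adjusted p = 0.215). Sema3e, the ligand of plexin-D1, and Sema3g were weak, at 4.83 ± 1.43 and 1.44 ± 0.344 FPKM in control mice (SD, n = 4), and their groups overlapped.

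Class 4 semaphorins are transmembrane proteins, many of which signal through B-type plexins. Sema4d, which OLs are known to make and which binds plexin-B1, had the highest FPKM of all 31 genes. It was 200, 180, 188 and 209 FPKM in control and 178, 188 and 161 FPKM in mutant mice, with overlapping groups (log2 difference -0.15, SE 0.0769, limma-trend adjusted p = 0.27). Its mutant mean was 90.3% of control. Sema4c was 22.7 ± 2.56 FPKM (SD, n = 4) and 19.2 ± 0.842 FPKM (SD, n = 3), a log2 difference of -0.23 (limma-trend adjusted p = 0.177). Sema4a, Sema4b and Sema4g had log2 differences of -0.14, 0.20 and -0.14, with adjusted p of 0.339, 0.422 and 0.403 (limma-trend). Of the 6 class 4 genes, 5 had lower means in mutant nerves, and 1 of them, Sema4f, passed.

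Class 5 semaphorins carry thrombospondin repeats. Sema5a, known as an inhibitor of retinal axon growth made by OLs of the optic nerve, was 46.1, 37.7, 40.3 and 39.4 FPKM in control mice. The mutant mice had 29.9, 34.8 and 31.8 FPKM and did not overlap with the controls. The log2 difference of -0.34 (SE 0.0842) fell short of the threshold (limma-trend adjusted p = 0.067), and it passed without mutant mouse 2 (adjusted p = 0.0452). Sema5b was 9.48 to 12.6 FPKM in control mice and 7.14, 7.37 and 10.5 FPKM in mutant mice, of which mutant mouse 3 lay within the control range (log2 difference -0.41, limma-trend adjusted p = 0.138).

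In class 6, Sema6a was set beside 3 relatives. Sema6d was 42.3, 33.0, 33.8 and 38.0 FPKM in control and 38.2, 42.5 and 46.0 FPKM in mutant mice, so the groups overlapped and the mean was higher in mutants (log2 difference 0.20, SE 0.1, limma-trend adjusted p = 0.254). Sema6b and Sema6c were at 4.28 ± 0.443 and 3.06 ± 0.361 FPKM in control mice (SD, n = 4), with log2 differences of -0.01 and 0.09 whose signs turned with the fit. Sema7a, the only semaphorin held by a lipid anchor, was 16.9 to 20.3 FPKM in control and 15.2 to 19.8 FPKM in mutant mice (log2 difference -0.03, SE 0.109, limma-trend adjusted p = 0.912).

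Neuropilins bind class 3 semaphorins and also vascular endothelial growth factor. Nrp2 was 8.62, 7.60, 7.51 and 8.82 FPKM in control and 11.3, 9.22 and 10.3 FPKM in mutant mice, with every mutant above every control. Its log2 difference was 0.32 (SE 0.0976, limma-trend adjusted p = 0.102), and no fit that left out 1 mouse called it. Nrp1 was 5.41 to 6.63 FPKM in control and 5.42 to 6.95 FPKM in mutant mice, with a log2 difference of 0.04 (SE 0.112, limma-trend adjusted p = 0.865) whose sign turned with the scaling.

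**Figure D3:**
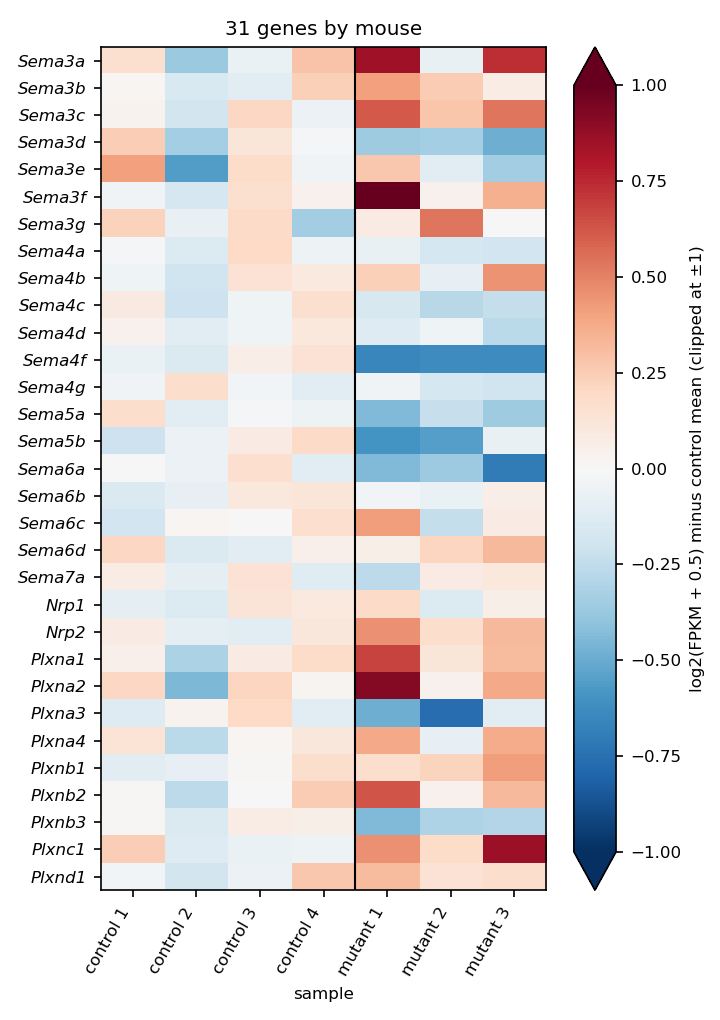
Each of the 31 genes (rows, by class) in each mouse (columns) as log2(FPKM + 0.5) minus the control mean, clipped at 1 in either direction. Control mouse 2 is mostly blue, with the lowest value of its group in 21 genes, and mutant mouse 1 has the highest value of its group in 16 genes.

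Mice of a group did not vary gene by gene alone. Control mouse 2 had the lowest control value in 21 of the 31 genes and control mouse 4 the highest in 13. Among mutants, mouse 1 was the highest in 16 genes and mouse 2 the lowest in 16. Such counts were not made over all genes, so whether the pattern is particular to the 31 genes was not tested. The median deviation from the control mean over the 31 genes was -0.14 in control mouse 2, between 0.02 and 0.10 in the other controls, and 0.18, -0.07 and 0.08 in mutant mice 1 to 3, in log2(FPKM + 0.5). Mice of the same number also deviated from their group means together across all genes tested, with correlations of 0.168, 0.409 and 0.27 for numbers 1, 2 and 3. Control mouse 4 with mutant mouse 1 had 0.205, so these correlations do not settle whether the numbers pair mice. With the block, 7 of the 31 genes passed in all, where 8.36% of all genes did. Control mouse 4 has no mutant of its number and adds nothing to the blocked difference.

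Of the 9 plexins, Plxnb3 alone passed the adjusted threshold, and 7 had positive log2 differences. Plxnb1, the receptor of Sema4d, was 94.3, 95.8, 103 and 115 FPKM in control and 115, 119 and 136 FPKM in mutant mice, where the highest control reached the lowest mutant. Its log2 difference was 0.27 (SE 0.0883, limma-trend adjusted p = 0.115), and with the replicate block it was called higher (0.33, limma-trend adjusted p = 0.0375). Within each mouse the log2 ratio of Plxnb1 to Plxnb3 in FPKM was 0.18, 0.36, 0.24 and 0.42 in controls and 0.92, 0.83 and 1.02 in mutants. The ratio was chosen after the values had been seen and is given without a test. The level of this ratio, and of those below, depends on the gene lengths used, while its difference between mice does not. Sema4d to Plxnb1, ligand to receptor, had a log2 ratio of 1.08, 0.91, 0.88 and 0.86 in controls and 0.63, 0.67 and 0.24 in mutants. Sema5a to Plxnb3, also described as a ligand and receptor, averaged -1.02 ± 0.128 (SD, n = 4) and -1.01 ± 0.0732 (SD, n = 3), a difference of 0.00 between genotypes.

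Plxnb2, the broadly expressed B-type plexin, was 19.1, 15.7, 18.8 and 22.6 FPKM in control and 29.6, 19.5 and 23.7 FPKM in mutant mice (log2 difference 0.33, SE 0.151, limma-trend adjusted p = 0.214). Mutant mouse 2 lay within the controls. With the replicate block it was called higher (0.42, limma-trend adjusted p = 0.0401). Without mutant mouse 1, the highest, the log2 difference was 0.18 (adjusted p = 0.515).

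A-type plexins transmit class 3 and class 6 signals. Plxna3 was 11.3, 12.8, 14.3 and 11.5 FPKM in control and 8.73, 7.12 and 11.5 FPKM in mutant mice, where mutant mouse 3 reached the control range. Its log2 difference of -0.45 (SE 0.15) did not pass (limma-trend adjusted p = 0.121), and with the replicate block it was called lower (-0.49, limma-trend adjusted p = 0.0496). Plxna1 and Plxna2 had log2 differences of 0.37 and 0.44 with adjusted p of 0.191 and 0.248 (limma-trend), and mutant mouse 1 was the highest of all mice for both, at 8.47 and 25.8 FPKM. Without it the log2 differences were 0.22 and 0.21, and that of Plxna2 was 0.29 without control mouse 2. The log2 ratio of Sema6a to Plxna2, its receptor, was 3.54, 4.17, 3.70 and 3.63 in controls and 2.38, 3.35 and 2.67 in mutants, again without a test. Plxna4 was the weakest of the 31 genes, at 0.811 ± 0.16 FPKM (SD, n = 4) in control and 1.04 ± 0.265 FPKM (SD, n = 3) in mutant nerves.

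Plxnc1, the receptor of Sema7a, was 10.5, 8.01, 8.37 and 8.46 FPKM in control and 12.3, 10.0 and 16.3 FPKM in mutant mice, with control mouse 1 above mutant mouse 2. The log2 difference of 0.50 (SE 0.157) did not pass (limma-trend adjusted p = 0.107), although it did without mutant mouse 2 (0.66, adjusted p = 0.043). Without mutant mouse 3, the highest, it was 0.32 (adjusted p = 0.236). Plxnd1, known from vessels, was 11.8 to 16.2 FPKM in control and 14.8 to 16.8 FPKM in mutant mice (log2 difference 0.21, SE 0.108, limma-trend adjusted p = 0.267). The endothelial markers, whose sum was 120% of control, were higher too, and their part in this value was not tested.

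Levels of different genes can be set side by side only per length, and the length behind the deposited FPKM matters here. For 8 of the 31 genes it equalled, within 1 base, the plain mean over all transcripts of the gene in GENCODE M21, short fragments included. Over all genes of the table found in that release, 41.2% did. The paper names an Ensembl annotation, and how the lengths of the other members arose was not traced. For Plxnb1 it was 1840 bases, whereas the longest coding transcript has 8649 bases, a ratio of 4.7. In 14 of the 31 genes that ratio was over 1.5. It does not touch the ratio of FPKM between mice, since 1 length is used for a gene in all samples.

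With the deposited lengths, the control order was led by Sema4d (194 ± 12.6 FPKM, SD, n = 4), Sema6a (182 ± 15.2), Plxnb1 (102 ± 9.4) and Plxnb3 (82.7 ± 5.68). Sema4d and Sema6a overlapped in their spread. With the longest coding transcript as length the order was Sema4d (153 ± 9.96), Sema6a (90.6 ± 7.56), Plxnb3 (68.0 ± 4.67) and Sema5a (40.9 ± 3.69), and the spreads of these 4 did not overlap. Plxnb1 then stood at 21.7 ± 2.0 FPKM, seventh of the 31, so the order of Plxnb1 and Plxnb3 turned with the length used. Plxnb3 was 32.0% of the summed FPKM of the 9 plexins with the first length and 51.2% with the second. Sema4d and Sema6a made up 30.1% and 28.2% of the summed FPKM of the 20 semaphorins with the first, and 34.7% and 20.5% with the second. At the lower end Plxna4, Sema3g and Sema3f had the lowest levels under the longest coding transcript, at 0.811 to 1.44 FPKM.

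**Figure D4:**
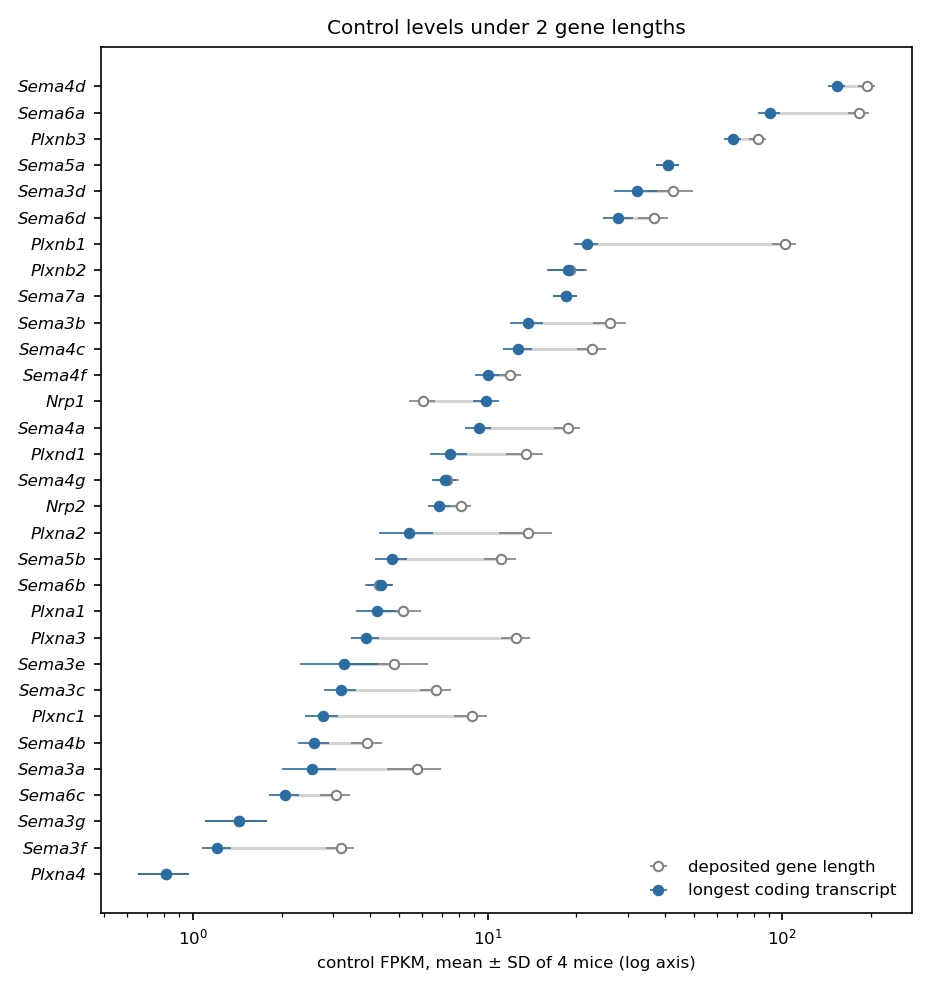
Control FPKM of the 31 genes, mean ± SD of 4 mice on a log axis, with the deposited gene length (open points) and with the length of the longest coding transcript in GENCODE M21 (filled points). Plxnb1 moves from 102 to 21.7 FPKM and drops below Plxnb3, while Sema4d and Sema6a lead under both lengths.

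Semaphorin signalling was followed further with a list of 52 genes, mostly of co-receptors, other receptors and cytoplasmic effectors, of which 51 were tested. Of these, 4 fell and 1 rose past the adjusted threshold, and 46 did not pass. These are 7.84% lower and 1.96% higher of the 51, against 1.36% and 1.26% of all genes. The list was drawn up with earlier results of these data known, so these shares are descriptions only. The median log2 difference of the list was 0.04, against 0.0478 over all genes. On the receptor side, a group that also holds adaptors and the ligand gene Vegfa, 1 of 17 tested genes passed (5.88%, against 2.62% of all genes). That was Gipc1, which encodes an adaptor that binds the tail of neuropilin-1, and it was 71.9 ± 6.55 FPKM (SD, n = 4) in control and fell to 55.4 ± 2.42 FPKM (SD, n = 3), a log2 difference of -0.37 (limma-trend adjusted p = 0.048). With the replicate block it did not pass (limma-trend adjusted p = 0.0613).

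Among 34 cytoplasmic effectors, 3 fell (8.82%) and 1 rose (2.94%). Rras2 encodes an R-Ras family GTPase, the kind of protein on which the plexin GTPase-activating domain acts. It was 55.8, 55.5, 52.8 and 40.1 FPKM in control and 31.2, 34.0 and 31.7 FPKM in mutant mice, with control mouse 4 apart from the other controls but above the mutants. Its log2 difference was -0.64 (SE 0.114, limma-trend adjusted p = 0.0327). Rap1gap, which encodes an activator of Rap GTP hydrolysis, was 69.8 to 85.4 FPKM in control and 53.0 to 57.0 FPKM in mutant mice (log2 difference -0.51, SE 0.0756, limma-trend adjusted p = 0.0214). Dpysl4, which encodes a collapsin response mediator protein, fell to 14.9 ± 0.495 FPKM (SD, n = 3) from a control mean of 18.8 ± 1.03 FPKM (SD, n = 4), a log2 difference of -0.32 (limma-trend adjusted p = 0.048). Farp1, which encodes an exchange factor of the FARP family that associates with A-type plexins, rose to 58.4 ± 1.7 FPKM (SD, n = 3) from a control mean of 44.7 ± 3.28 FPKM (SD, n = 4). Its log2 difference was 0.38 (SE 0.0688, limma-trend adjusted p = 0.0327), and it did not pass with median-ratio rescaling (adjusted p = 0.0519), normalized counts (0.0587), equal sums of FPKM (0.0534) or no filter (0.0622). With no filter Dpysl4, Gipc1 and Rras2 did not pass either (adjusted p of 0.0666, 0.0929 and 0.079), nor did Dpysl4 and Gipc1 with equal sums (0.0545 and 0.0569). None of these 5 genes passed in every fit that left out 1 mouse. Rap1gap passed in 4 of 7, Farp1 in 3 of 7, Rras2 in 2 of 7, and Gipc1 and Dpysl4 in 0 of 7.

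**Figure D5:**
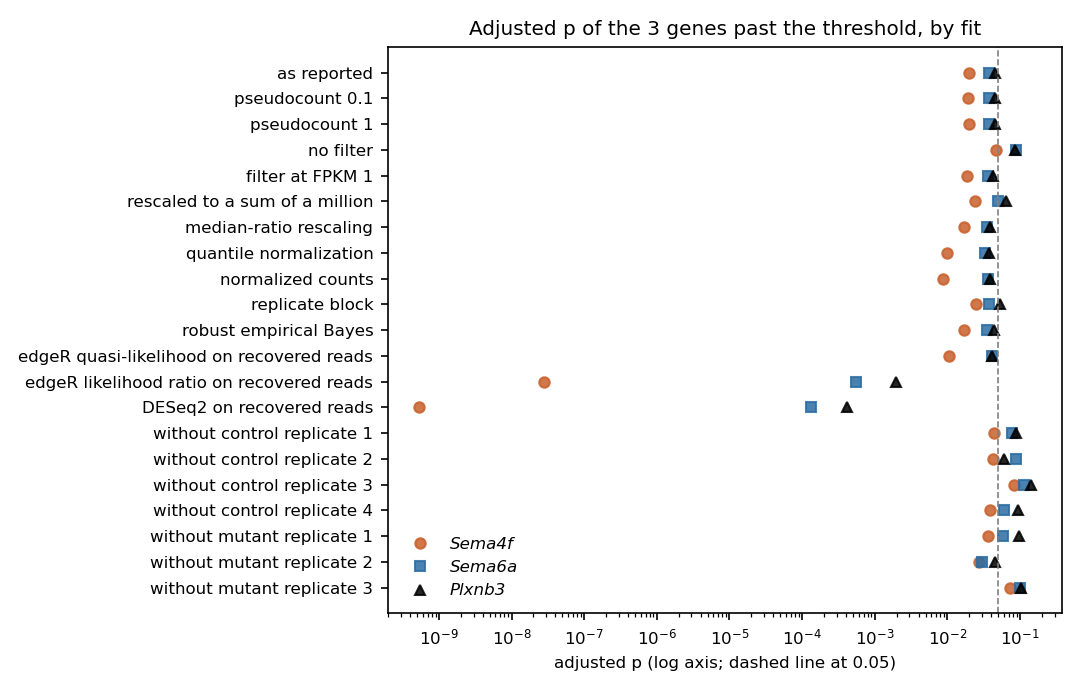
Adjusted p (log axis, dashed line at 0.05) of Sema4f, Sema6a and Plxnb3 in the reported fit, in 13 other fits of all 7 mice and in 7 fits that left out 1 mouse. The 3 genes lie left of the line as reported, and without control replicate 3 or mutant replicate 3 all of them lie right of it.

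The strand used in counting is not stated in the sources used here, and 12 of the 31 genes overlap an annotated gene on the other strand in GENCODE M21, among them Plxnb1 (Gm7628), Sema4d (Gm23566), Sema5a (4930465K09Rik) and Nrp2 (Gm29083). Reads of such pairs cannot be told apart without strand. The 3 genes that passed have no such neighbour.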

How the data were processed

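RNA was measured in optic nerves of 4 control and 3 mutant mice, grouped by their GEO titles. Per the labels and the paper's methods, the authors trimmed reads from a stranded poly-A kit, aligned them with STAR 2.5.1b to GRCm38 and estimated gene counts with RSEM 1.2.22. They deposited, for 22880 genes, a normalized count (a signal, the RSEM count divided by a size factor per sample) and an FPKM value. Their own log2 ratios, p-values and FDR from edgeR, and annotation columns, were not used. FPKM followed normalized count over deposited length within 0.273%.

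The planned test for FPKM was limma-trend (limma 3.58.1, R 4.3.3) on log2(FPKM + 0.5), genotype only, for genes with 0.5 FPKM or more in 3 or more samples, with Benjamini-Hochberg adjustment over 13866 genes and a threshold of 0.05. The most frequent positive normalized count of a sample was taken as 1 read. Of values between 0.5 and 10 reads, 75.7% to 81% were whole within 0.05. The reads, rounded, gave the depths and were tested in edgeR 4.0.16 (401 genes called by quasi-likelihood) and DESeq2 1.42.0. Scripts were tested on simulated data. Replicates differed by more than sampling noise (median chi-square per gene 2.09 to 5.71 between pairs).

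The labels number the mice without saying what a number marks. Same-numbered mice had correlations of 0.168 to 0.409, against -0.353 to 0.205 for other pairs, so the ranges overlap. The replicate block takes the numbers as pairs, a reading drawn from the same values that the block is then fitted to. Its calls are those of an alternative fit only. Named genes are all 31 members, Fasn and the pathway partners past the threshold. Members and lists were chosen with earlier results of these data known. Mical3, listed under 2 identifiers, entered once.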

Additional observations from a re-analysis of the deposited data

How the results depend on the processing

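Both the number of calls and the size of single differences changed with the fit. With 1 mouse left out, the log2 difference of Sema3f ran from 0.20 to 0.89 and that of Sema4f from -0.69 to -0.59. Over all genes the 363 calls became 95 with no filter on low values, 241 with FPKM rescaled to equal sums and 1159 with the replicate block. They became 1342 with the likelihood ratio test of edgeR (added after the data had been seen) and 1682 with DESeq2. With 1 mouse left out they were 6 to 907. There were 6 without control replicate 3, 6 without mutant replicate 3 and 907 without mutant replicate 2. The 3 calls among the 31 genes became 1, 7, 8 and 11 with no filter, the replicate block, the likelihood ratio test and DESeq2, and 0 to 7 with 1 mouse left out (0 without control replicate 3 or mutant replicate 3, and 7 without mutant replicate 2). The 5 calls among pathway partners became 1 with no filter, 2 with equal sums, 10 with the likelihood ratio test and 14 with DESeq2, and 0 to 5 with 1 mouse left out. The 9 calls among cell type markers became 1 with no filter, 25 with the replicate block, 24 with the likelihood ratio test and 27 with DESeq2, and 0 to 17 with 1 mouse left out. No filter tests 19291 genes instead of 13866. The causes of these changes in calls were not tested. Fasn was called in every fit, with -2.02 to -1.77 when 1 mouse was left out.

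Of 619 values of the 31 genes under 20 alternatives, 560 kept their direction and side of the threshold, 22 passed it, 18 lost it and 19 changed sign. Only the 3 called genes, Sema4f, Sema6a and Plxnb3, had a call to lose, so the 18 losses are theirs by definition. Most of the 560 were values of the 28 genes not called. The sign changes were in 5 genes, none of them called. Nrp1 was -0.0111, -0.0461 and -0.0358 with median-ratio rescaling, quantile normalization and normalized counts, and -0.00676, -0.00656 and -0.00419 with the quasi-likelihood, likelihood ratio and DESeq2 tests. Sema6b was 0.0336 with the replicate block, and Sema6c was -0.0244 with quantile normalization. With 1 mouse left out, Nrp1 ran from -0.0391 to 0.13, Sema3e from -0.25 to 0.079, Sema6b from -0.0565 to 0.0336, Sema6c from -0.0794 to 0.25 and Sema7a from -0.091 to 0.0923. Plxnb3 also lost its call with no filter (adjusted p = 0.0853) and with equal sums (adjusted p = 0.0638, limma-trend), and Sema6a with no filter (adjusted p = 0.0884). Beyond the genes named with it above, the replicate block changed no call among the 31 genes and the 5 named partners.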
